A study of Mus musculus with 6 samples.

Results

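The ephrin, Slit and netrin guidance genes are 39 genes, chosen by gene symbol alone, of the 54309 genes measured in these nerves. They comprise 5 ephrin-A and 3 ephrin-B ligands, 9 EphA and 5 EphB receptors, 3 Slit ligands with 4 Robo receptors, and 4 netrin ligands with neogenin (Neo1), Dcc and 4 Unc5 receptors. RNA came from the distal left sciatic nerve of C57BL/6 mice aged 6 to 8 weeks and was sequenced in 3 female and 3 male libraries, each a pool of 2 animals. All nerves were taken 24 h after surgery, and the study's stated purpose was to compare the sexes after the nerve was cut. The sources contradict each other on that surgery, since a treatment field names axotomy for all 6 libraries and the procedure written for them exposes the nerve and leaves it uncut, so the state of the nerves cannot be told from the labels. Unoperated nerves are not analysed here, and every value below describes operated nerves of 1 sex or the other.

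Eph receptors are tyrosine kinases that bind ephrins on a neighbouring cell, and signals run into both cells, forward through the receptor and in reverse through the ephrin. Ephrin-A ligands are held to the membrane by a lipid anchor and mostly bind EphA receptors, while ephrin-B ligands span the membrane and mostly bind EphB receptors and EphA4. Slits and netrins are secreted: Slits act on Robo receptors, chiefly as repellents, and netrin-1 attracts through DCC or repels through UNC5 proteins. In injured rodent nerve, contact between fibroblasts bearing ephrin-B and Schwann cells bearing EphB2 gathers the Schwann cells into cords, and Slit3 with Robo1 is known in mice for keeping migrating Schwann cells on the path across the nerve bridge.

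Libraries held 68696023 to 75159187 estimated reads in females and 55272138 to 77610593 in males. Of these reads, 93.7% to 94.4% lay in the gene table used here, which holds protein-coding transcripts and all transcripts of genes with none. The labelled tissue showed its defining transcripts, with all 10 listed Schwann cell markers above a mean of 1 TPM and none of them at 0 in any library. Their summed level was 4467 to 7252 TPM in female libraries and 10121 to 12582 TPM in male libraries, without overlap. Summed fibroblast markers (4561 to 5352 TPM in females and 5970 to 8183 TPM in males) and perineurial markers (428 to 506 TPM in females and 532 to 578 TPM in males) were likewise separated, with all 10 and all 8 listed genes above a mean of 1 TPM. T cell markers, of which 5 of 8 passed 1 TPM, summed to 8.90 to 11.9 TPM in females and 12.5 to 20.2 TPM in males. Skeletal muscle markers summed to 17.2, 1215 and 24.0 TPM in female libraries 1 to 3 and to 622, 10.2 and 10.1 TPM in male libraries 1 to 3, so that female 2 and male 1 stand apart. Female 2 was also highest in adipocyte markers, at 2486 TPM against 780 to 1638 TPM in the other libraries. In bulk tissue, fewer cells of a type and less RNA per cell cannot be told apart.

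Promoter sequence is shown first for Slit2, the most abundant member, for Ephb6, the most abundant receptor, and for Ephb1, the tested member with the largest fold change between the sexes. RefSeq promoter windows of the GRCm38.p6 build matched 34 of the 39 members by symbol; Ntn1, Efnb3, Slit1, Unc5d and Dcc were not matched. The lines run 5′ to 3′ on the gene's strand and stop before the first annotated exon, at chr5:47982905-47983137 (Slit2, plus strand), chr6:41605261-41605481 (Ephb6, plus strand) and chr9:102354694-102354943 (Ephb1, minus strand). Capitals mark matches on either strand to 4 motifs, and no match overlapped another. The motif TATAAA is the core of the box bound by the TATA-binding protein. The letters CCAAT form the site of the NF-Y factor, while GGGCGG is the GC box of factors like SP1. The fourth motif searched, ACAAAG, is a core that proteins of the SOX family bind.
Slit2 promoter: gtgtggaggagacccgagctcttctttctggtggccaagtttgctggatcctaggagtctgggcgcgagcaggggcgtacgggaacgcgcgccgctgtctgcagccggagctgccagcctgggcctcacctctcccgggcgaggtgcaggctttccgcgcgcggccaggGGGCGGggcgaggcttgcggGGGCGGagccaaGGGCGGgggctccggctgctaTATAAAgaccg
Ephb6 promoter: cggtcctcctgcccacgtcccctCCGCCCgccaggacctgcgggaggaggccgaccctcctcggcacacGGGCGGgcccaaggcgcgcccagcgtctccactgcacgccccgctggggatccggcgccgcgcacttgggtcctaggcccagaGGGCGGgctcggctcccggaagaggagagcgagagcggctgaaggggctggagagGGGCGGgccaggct
Ephb1 promoter: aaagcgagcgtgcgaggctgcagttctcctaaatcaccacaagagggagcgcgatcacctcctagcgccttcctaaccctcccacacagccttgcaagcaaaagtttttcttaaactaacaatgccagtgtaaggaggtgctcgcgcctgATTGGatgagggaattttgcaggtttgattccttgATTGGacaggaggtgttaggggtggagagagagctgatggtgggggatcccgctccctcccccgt

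Within the printed stretches, Slit2 had 1 TATAAA match and 3 GC boxes, Ephb6 had 4 GC boxes, and Ephb1 had 2 CCAAT matches and no GC box. Over the 250 bases before the start, 24 of 34 member promoters (70.6%) held a GC box, against 45.8% for 17491 protein-coding genes. Shares are per gene, and a gene counted if any of its promoter windows matched. TATAAA was found in 2 member promoters (5.88%), those of Efnb2 and Slit2, against 13.7% of all. CCAAT occurred in 13 member promoters (38.2%), against 39.5% of all, and ACAAAG in 2 (5.88%), against 17.01% of all. With the highest value taken over each gene's windows, members had a median of 17.5 CpG dinucleotides and 65.8% G+C, against 11 and 56.4% over all genes. A match describes these letters only and says nothing of whether a factor was bound.

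Levels are given in TPM, abundance per transcript length scaled to a fixed total, so that genes can be compared with each other. Means over the 6 libraries ran from 0.00309 TPM (Epha8) to 67.3 TPM (Slit2). Of the 39 genes, 17 averaged at least 2 TPM, 17 lay between 0.1 and 2 TPM, and 5 lay below 0.1 TPM. The highest were 2 secreted ligands, Slit2 (ENSMUSG00000031558.16) and, at a mean of 58.4 TPM, Ntn1 (ENSMUSG00000020902.13), which encodes netrin-1. Ephb6 (28.5 TPM), whose receptor lacks kinase activity, Ntn4 (24.4 TPM), encoding a netrin of basement membranes, Efnb1 (16.8 TPM) and Slit3 (15.7 TPM) came next.

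**Figure D1:**
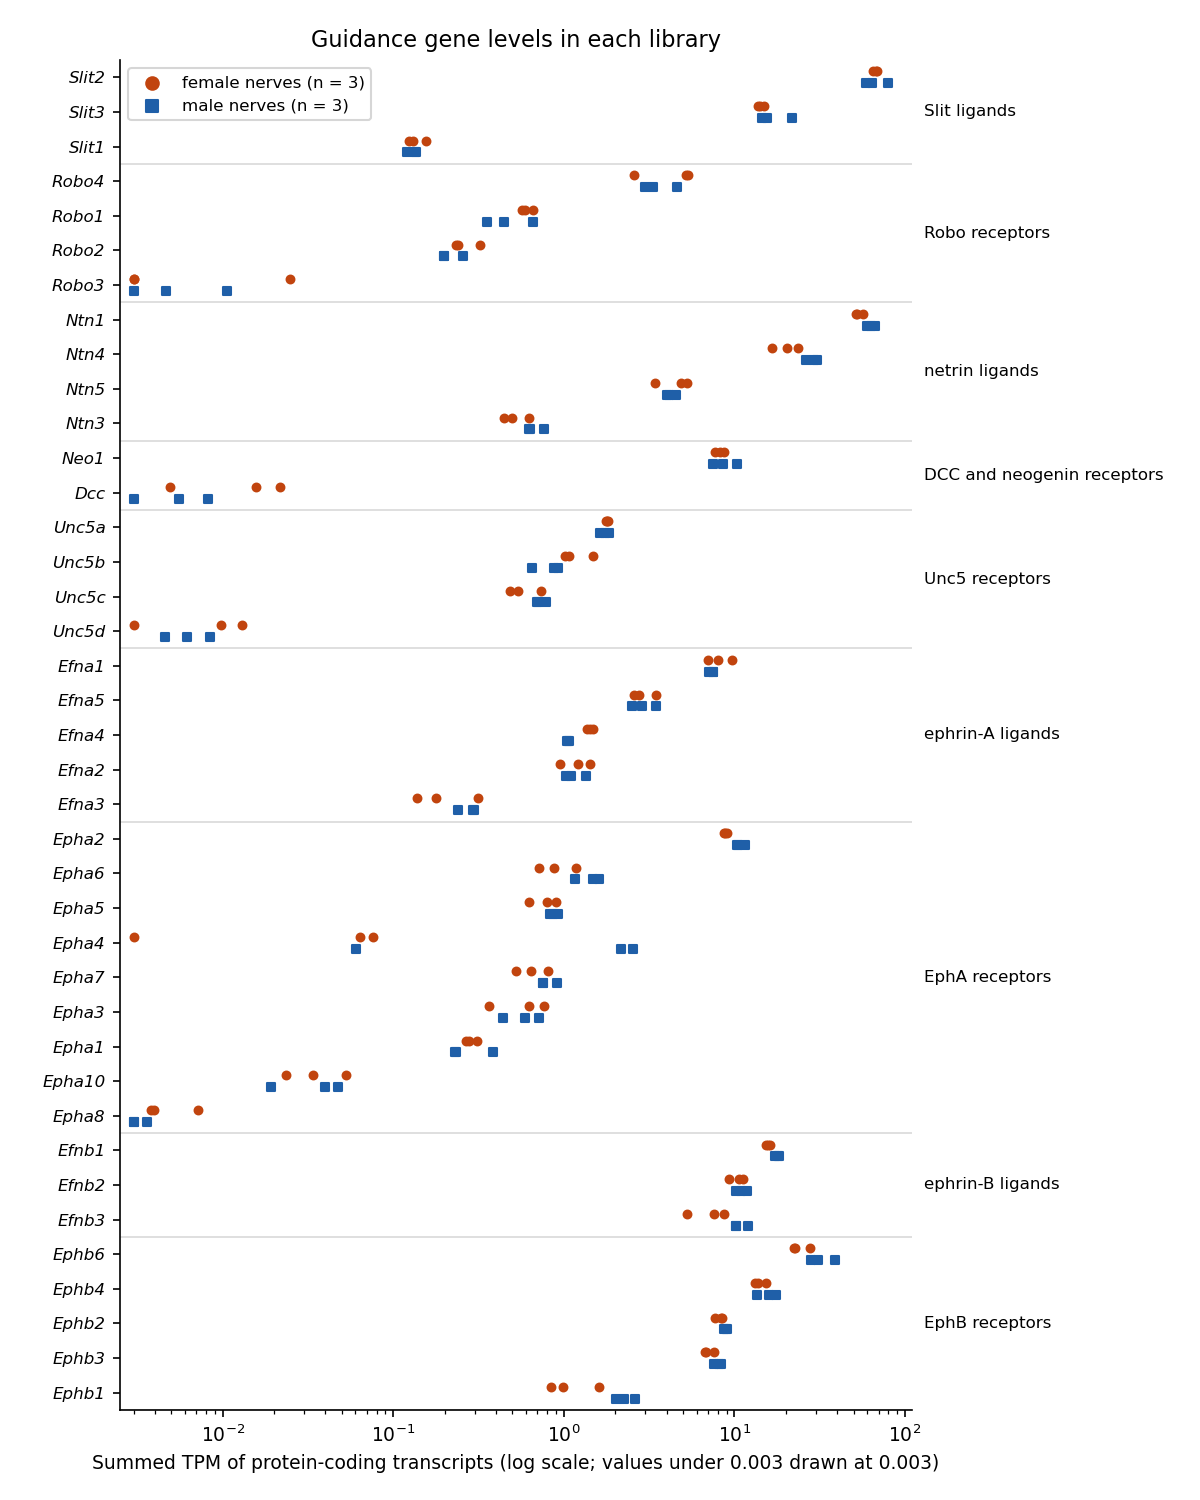
Level of each of the 39 guidance genes in each library (TPM on a logarithmic axis), grouped by family, with female libraries in orange and male libraries in blue. Slit2 and Ntn1 lie highest within the set and Dcc, Robo3, Unc5d, Epha8 and Epha10 lie under 0.1 TPM.

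Among the Slits, Slit2 had 67.4, 64.9 and 69.0 TPM in female libraries 1 to 3 and 79.6, 59.1 and 63.8 TPM in male libraries 1 to 3. Male 1 was the highest and male 2 the lowest, so the sexes overlapped. Slit3 had 13.7, 15.0 and 14.2 TPM in females and 14.4, 15.5 and 21.7 TPM in males, with male 3 apart from the other 5 libraries. Slit1, the ligand best known from the nervous system, stayed at 0.121 to 0.156 TPM. The Slits' receptors were sparse. Robo4, the endothelial Robo, had 5.32, 5.19 and 2.57 TPM in females and 3.35, 3.00 and 4.62 TPM in males, the lowest value being that of female 3, which was also lowest in summed endothelial markers (222 TPM, against 242 to 319 TPM in the other libraries). Robo1, the Slit receptor known on Schwann cells, averaged 0.606 ± 0.0475 TPM in females and 0.486 ± 0.154 TPM in males (SD, n = 3 each), and Robo2 averaged 0.242 TPM over all libraries. Robo3 was listed at 0 reads in 3 of the 6 libraries, which allows up to 3 reads in each, and reached 6.85 reads at most. Summed Slit TPM was 13.1 to 24.1 times summed Robo TPM in the 6 libraries, and 11.5 to 19.6 times with every annotated transcript counted.

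Netrin ligands summed to 78.7 ± 6.8 TPM in females and 96.9 ± 3.6 TPM in males (SD, n = 3 each). Ntn1 and Ntn4 made up most of this. Ntn5 had 5.30, 3.41 and 4.85 TPM in female libraries and 4.53, 4.02 and 4.12 TPM in male libraries, where all 3 males fell inside the female range. Ntn3 lay at 0.447 to 0.765 TPM. Of the netrin receptors, neogenin (Neo1), which also binds the RGM guidance proteins, was the main one, with 8.26, 8.71 and 7.74 TPM in females and 7.51, 8.53 and 10.3 TPM in males, overlapping. Dcc, the receptor through which netrin-1 attracts axons, had at most 10 reads in a library and a mean of 0.00933 TPM. Of the Unc5 receptors, Unc5a averaged 1.76 TPM, Unc5b 1.002 TPM and Unc5c 0.657 TPM, while Unc5d had 1 to 4 reads per library. Summed netrin TPM was 5.77 to 9.005 times that of neogenin, Dcc and Unc5 together.

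Ephrin-B ligands and EphB receptors outweighed their A-class counterparts. EphB receptors summed to 54.7 ± 3.4 TPM in females and 67.6 ± 3.0 TPM in males, and EphA receptors to 12.2 ± 0.7 TPM in females and 16.4 ± 1.1 TPM in males (SD, n = 3 each). Ephrin-B ligands summed to 33.4 ± 1.4 TPM in females and 39.7 ± 1.8 TPM in males, and ephrin-A ligands to 14.03 ± 1.8 TPM in females and 12.8 ± 0.5 TPM in males. The ratio of ephrin-B to EphB TPM moved little between libraries, at 0.567 to 0.657, while that of ephrin-A to EphA ranged from 0.769 to 1.37. With every annotated transcript counted, the EphA sums became 15.7 ± 1.19 TPM in females and 19.4 ± 0.67 TPM in males, and the ephrin-A to EphA ratio 0.632 to 1.09. Epha4, described further on, is among the receptors that this adds to.

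**Figure D2:**
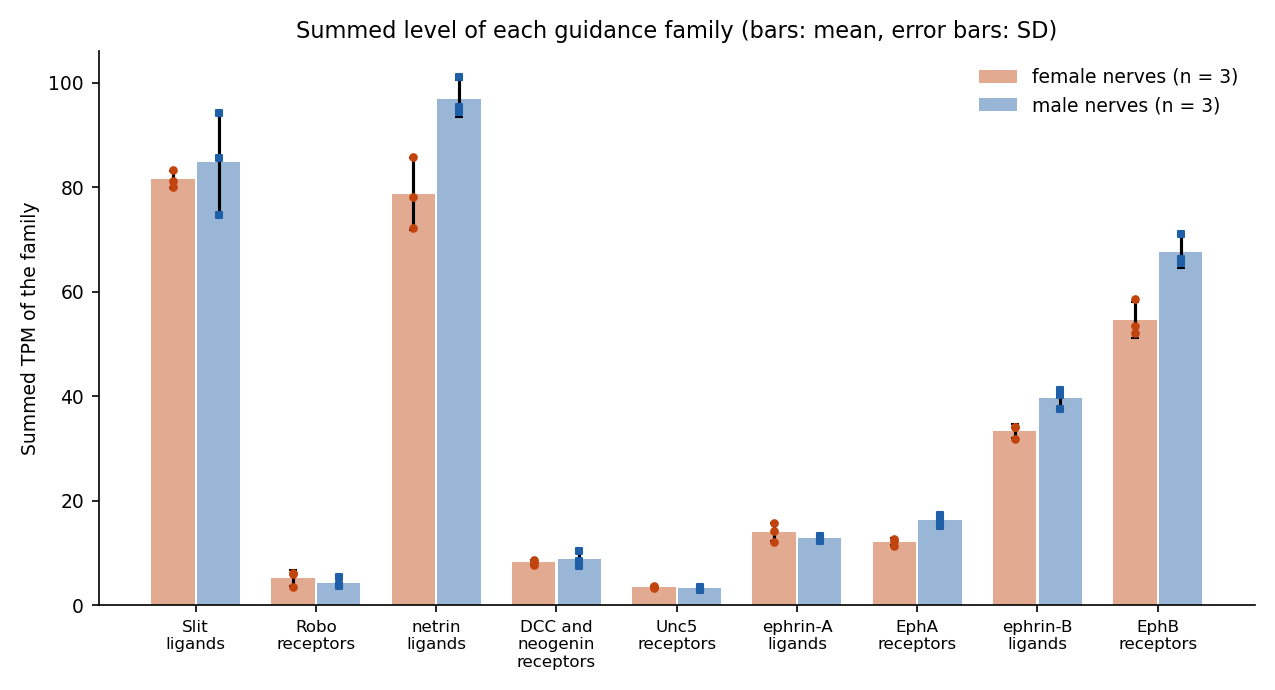
Summed TPM of each of the 9 ligand and receptor families in the 3 female (orange) and 3 male (blue) libraries, shown as points over bars of the mean with SD. Netrin, ephrin-B, EphA and EphB sums lie lower in every female library than in every male library, whereas Slit, Robo, Unc5, neogenin with Dcc, and ephrin-A sums overlap.

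Within the B class, Ephb4 and Efnb2, the receptor and ligand that mark veins and arteries, overlapped between the sexes. Ephb4 had 15.3, 13.7 and 13.2 TPM in females and 13.6, 16.0 and 17.4 TPM in males. Efnb2 had 10.7, 11.2 and 9.36 TPM in females and 10.9, 10.2 and 11.9 TPM in males. Ephb2, the receptor of the Schwann cell cords, had 7.67, 8.30 and 8.43 TPM in females and 9.10, 8.93 and 8.73 TPM in males, so that on this scale all females lay below all males, though on the read-based scale of the test female 3 exceeded male 3. Among ephrin-A ligands, Efna1, a ligand of EphA2 that is strong in endothelium, led with 9.73, 8.05 and 7.02 TPM in females and 7.14, 7.51 and 7.50 TPM in males, the males lying inside the female range. Efna5 had 2.75, 3.46 and 2.57 TPM in females and 2.52, 2.86 and 3.46 TPM in males, also overlapping. Efna2 and Efna3 averaged 1.18 and 0.244 TPM. Epha2 was the highest EphA receptor at 9.81 TPM, and Epha6, Epha5, Epha7, Epha3 and Epha1 averaged 1.17, 0.824, 0.731, 0.584 and 0.284 TPM. Epha8 and Epha10 averaged 0.00309 and 0.0361 TPM.

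The sexes were then compared by edgeR's quasi-likelihood test over 18916 genes. The low-read filter kept 33 of the 39 members and removed Dcc, Epha8, Epha10, Robo3, Unc5d and Epha4. At a Benjamini-Hochberg adjusted p under 0.05, none of the 33 was called higher in females and none higher in males, against 0.0211% and 0.0952% of all genes. At an unadjusted p under 0.05, 2 members were higher in females (background 5.45%) and 8 were higher in males (24.2% of members, background 8.26%). DESeq2 called 3 members higher in males (background 3.42%) and none higher in females (background 1.22%), and neither limma-voom nor limma on TPM called any. Values below are CPM, a share of the library's reads scaled by TMM to allow for composition, and fold changes are female minus male on the log2 scale, with SE.

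On this CPM scale every female library lay below every male library for 8 of the 33 members, Ntn4, Ntn1, Ephb1, Ephb3, Epha2, Epha6, Efnb1 and Efnb3, against 11.3% of all genes. Every female library lay above every male one for 3 members, Unc5b, Unc5a and Efna4, against 9.25% of all genes. Of the 33 fold changes, 20 were below 0, against 46.6% of all genes. The median fold change was -0.14 over the members and 0.02 over all genes, and the median absolute fold change was 0.24 over the members and 0.15 over all genes.

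**Figure D3:**
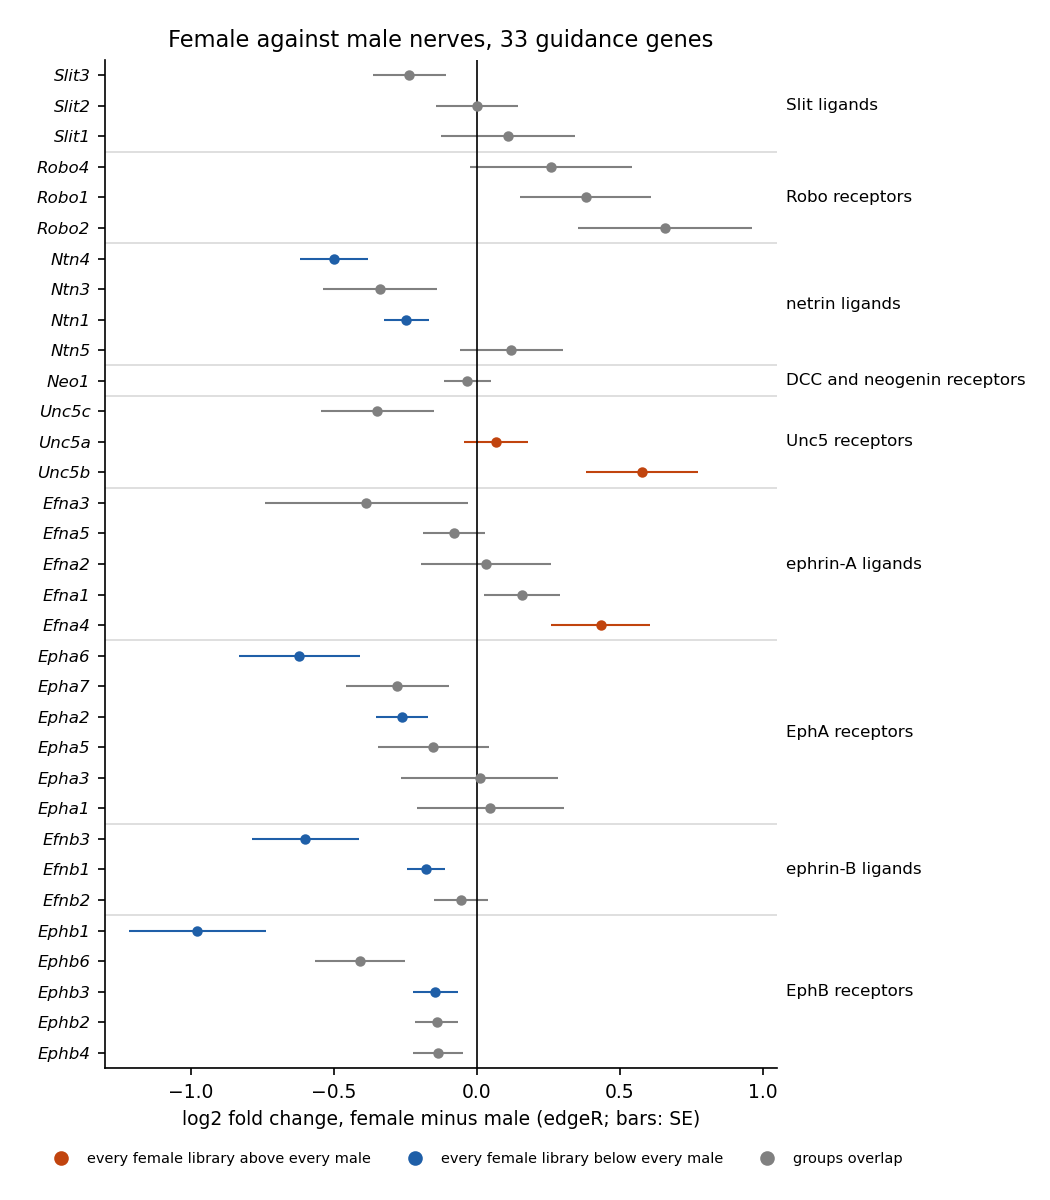
Log2 fold change, female minus male, of the 33 tested guidance genes by family (points, edgeR; bars, SE), coloured by whether the female and male libraries overlap in CPM. The 8 blue members have every female library below every male library and the 3 orange members the opposite, and no member has an adjusted p under 0.05.

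Ntn4 (ENSMUSG00000020019.5) had the smallest p of the set. It had 48.1, 39.2 and 54.5 CPM in female libraries 1 to 3 and 64.3, 70.9 and 65.3 CPM in male libraries 1 to 3. The highest female, library 3, stayed below the lowest male, library 1. The fold change was -0.50 (SE 0.12, adjusted p = 0.165, edgeR). Ntn1 had 196, 194 and 215 CPM in females and 249, 227 and 242 CPM in males, again with no overlap and with female 3 nearest to the males, and its fold change was -0.25 (SE 0.08, adjusted p = 0.241, edgeR). In contrast, Ntn3 and Ntn5 overlapped, with fold changes of -0.34 (SE 0.20; -0.22 without male 2) and 0.12 (SE 0.18; -0.013 without female 1).

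Fold changes of the netrin receptors ran in both directions. Unc5b, a netrin receptor of endothelium and macrophages, had 4.52, 6.69 and 4.81 CPM in females and 2.97, 3.85 and 3.92 CPM in males, where female 2 was the highest and no male reached a female (fold change 0.58, SE 0.20, adjusted p = 0.262, edgeR; 0.38 without female 2 and 0.26 without the 2 libraries with muscle transcripts). Unc5a had 5.09, 5.14 and 5.05 CPM in females and 4.65, 4.96 and 4.98 CPM in males. Its groups were separate by a narrow gap on this scale and overlapped in TPM, and the fold change of 0.07 (SE 0.11) was smaller than its error. Neo1 (fold change -0.03, SE 0.08) and Unc5c (-0.35, SE 0.20; -0.19 without female 2 and -0.53 without female 3) overlapped.

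Ephb1 (ENSMUSG00000032537.16), a catalytically active EphB receptor, had the largest fold change among the members tested. It had 3.396, 2.92 and 5.59 CPM in females and 7.26, 7.57 and 8.64 CPM in males. Females 1 and 2 lay far below every male and female 3 lay between them and the males. The fold change was -0.98 (SE 0.24, adjusted p = 0.172, edgeR), and without female 3 it was -1.31 and passed the threshold (adjusted p = 0.0237, edgeR). Leaving out female 3 also raised the calls higher in males over all genes from 18 to 138. Ephb6 had 66.6, 67.0 and 82.9 CPM in females and 117, 90.5 and 79.2 CPM in males, so that female 3 exceeded male 3 (fold change -0.41, SE 0.16, adjusted p = 0.323, edgeR; -0.23 without male 1 and -0.18 without the 2 libraries with muscle transcripts). Ephb3 had 21.9, 21.8 and 23.5 CPM in females and 24.9, 25.7 and 23.8 CPM in males, a narrow separation with a fold change of -0.15 (SE 0.08). Ephb2 and Ephb4 overlapped, each with a fold change of -0.14, which became -0.078 for Ephb2 without male 1 and -0.078 for Ephb4 without male 3.

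Efnb3 (ENSMUSG00000003934.6), an ephrin-B ligand known for repelling axons in the spinal cord, had 11.2, 16.0 and 18.5 CPM in females and 26.5, 21.7 and 21.1 CPM in males. All 3 females lay below all 3 males, and female 1 was the lowest (fold change -0.60, SE 0.19, adjusted p = 0.240, edgeR). Efnb1, the X-linked ephrin-B gene, had 36.6, 36.3 and 37.98 CPM in females and 43.9, 40.5 and 41.05 CPM in males, with a smaller fold change of -0.18 (SE 0.07, adjusted p = 0.302, edgeR). Efnb2 overlapped at -0.06 (SE 0.09). DESeq2 gave adjusted p = 0.00446 for Ephb1, 0.0115 for Ntn4 and 0.0461 for Efnb3. Over the 19 alternatives tried, the adjusted p ranged from 0.00446 to 0.448 for Ephb1, from 0.0115 to 0.408 for Ntn4 and from 0.0461 to 0.491 for Efnb3.

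Among A-class genes, Epha2 had 28.1, 29.5 and 29.1 CPM in females and 38.7, 33.5 and 31.6 CPM in males. The females lay close together and below every male (fold change -0.26, SE 0.09, adjusted p = 0.269, edgeR; -0.17 without male 1). Epha6 had 1.98, 2.39 and 3.28 CPM in females and 3.43, 4.08 and 4.26 CPM in males, separate in CPM but with female 3 just above male 1 in TPM (fold change -0.62, SE 0.21, adjusted p = 0.266, edgeR). Efna4, a ligand of several EphA receptors, ran the other way, with 1.62, 1.498 and 1.58 CPM in females and 1.21, 1.16 and 1.10 CPM in males (fold change 0.43, SE 0.17, adjusted p = 0.334, edgeR). Its counts were small, between 57 and 113 reads a library. Epha1, Epha3, Epha5, Epha7, Efna1, Efna2, Efna3 and Efna5 overlapped, with fold changes between -0.39 and 0.16.

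The Slit and Robo genes gave no separated member. Slit2 averaged 367 ± 13.6 CPM in females and 367 ± 78.4 CPM in males (SD, n = 3 each), with male 1 far above the other males. Slit3 had a fold change of -0.24 (SE 0.13), or -0.067 without male 3, and Slit1 one of 0.11 (SE 0.23). The 3 tested Robo genes had positive fold changes of 0.38 (SE 0.23, Robo1), 0.66 (SE 0.30, Robo2) and 0.26 (SE 0.28, Robo4), none past the threshold and each with overlapping sexes. With 1 library left out, the fold change ran from 0.195 (without male 1) to 0.644 (without male 3) for Robo1 and from 0.1004 (without female 2) to 0.523 (without female 3) for Robo4. For Robo2, which had 18 to 57 reads a library, it ran from 0.477 (without male 2) to 0.931 (without male 3). The Robo2 fold change was 0.325 with a transcript length offset, 0.204 with limma on log2(TPM + 0.1) and 0.057 with limma on log2(TPM + 1).

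Marker sums of 4 of the 11 cell types listed, those of Schwann cells, fibroblasts, perineurial cells and T cells given above, were also lower in every female library than in every male library. Among the females, library 3 had the highest Schwann cell sum (7252 TPM) and the highest CPM of 7 of the 8 members with every female below every male, Epha2 being highest in female 2. Among the males, library 1 had the highest Schwann cell sum (12582 TPM), the highest Ntn1, Epha2, Efnb1 and Efnb3, and the lowest Ntn4, Ephb1 and Epha6. The part of these cell markers in the differences was not tested. Without female 2 and male 1, the libraries with muscle transcripts, 12 members had every female below every male (background 21.4%) and 8 had every female above (background 23.2%), in an alternative added after the data were seen.

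Salmon assigns reads to annotated isoforms, so the splice forms behind these levels could be compared as a share of each gene's TPM. These shares are estimates, and the limits used, a gene mean of at least 2 TPM and an isoform share of 5% to 95%, were set after shares had been seen, so no test is given. They took in 21 isoforms of 9 members. Shares did not overlap between the sexes for 10 isoforms, 5 higher in females and 5 higher in males, against 5.96% and 5.82% of 16754 isoforms of all genes under the same limits, or 11.8% in either direction. Isoforms of 1 gene share a total, so these are not 10 separate observations, and they come from Slit2, Ephb2, Ephb4, Ntn5, Neo1 and Ntn1.

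Slit2, Ephb2, Ntn5 and Ntn1 each had 2 isoforms separated in opposite directions. Coding stretches that distinguish the isoforms are shown for Slit2 and Ephb2 only. In coding sequence these isoforms differ by short segments. These genes were chosen after their shares were seen. They were read from GENCODE M21 transcripts (GRCm38), to which 111 of 112 coding member transcripts matched by identifier and length. Capitals mark the coding bases present in 1 isoform and absent from the other, and lower case gives 30 transcript bases on each side. Differences outside the coding sequence are not shown. The Slit2 segments are whole exons at chr5:48220967-48220990 (24 bases) and chr5:48191003-48191014 (12 bases) on the plus strand. The Ephb2 segments lie at chr4:136675531-136675533, present in Ephb2-201, and chr4:136672508-136672510, present in Ephb2-203, on the minus strand. All 4 lie in coding sequence and keep the reading frame.
Slit2 24-base exon: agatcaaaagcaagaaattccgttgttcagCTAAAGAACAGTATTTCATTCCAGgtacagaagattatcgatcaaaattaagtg
Slit2 12-base exon: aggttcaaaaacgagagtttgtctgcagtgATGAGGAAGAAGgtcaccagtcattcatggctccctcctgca
Ephb2-201 segment: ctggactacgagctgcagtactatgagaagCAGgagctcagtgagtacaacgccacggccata
Ephb2-203 segment: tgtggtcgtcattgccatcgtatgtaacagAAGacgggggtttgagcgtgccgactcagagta

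Slit2-202 carries the 24-base exon and Slit2-216 lacks it. Slit2-202 took 46.7%, 43.8% and 43.2% of Slit2 TPM in females and 39.6%, 39.995% and 37.8% in males. Slit2-216 took 16.2%, 18.3% and 21.3% in females and 27.3%, 26.8% and 24.8% in males. Neither isoform's share overlapped between the sexes, while the total level of Slit2 did. Of these 2 isoforms together, the form with the exon made up 70.6 ± 3.57% in females and 59.8 ± 0.612% in males (SD, n = 3 each). Slit2-208, with 32.6% to 37.9% of Slit2 TPM, also lacks the 24-base exon. Over Slit2-202, Slit2-216 and Slit2-208 together, the exon was present in 44.6 ± 1.84% in females and 39.2 ± 1.27% in males. Over the same isoforms, the 12-base exon was present in 62.1% to 64.5% in females and 62.6% to 67.2% in males, overlapping. The isoform with a further 27-base exon was listed at 0 in every library.

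Ephb2-201 took 63.8%, 64.7% and 63.3% of Ephb2 TPM in females and 72.2%, 70.4% and 69.6% in males. Ephb2-203 took 16.6%, 19.7% and 21.0% in females and 10.9%, 13.8% and 14.2% in males. The females thus had less Ephb2-201, which holds the CAG bases, and more Ephb2-203, which holds the AAG bases, in all 3 libraries. These transcripts also differ in length (4804 and 3653 bases), so their shares do not measure the short coding segments alone. Of the remaining separated isoforms, Neo1-202 took 47.7% to 61.2% of Neo1 TPM in females and 44.4% to 46.6% in males, and Ntn5-202 took 35.6% to 42.7% of Ntn5 TPM in females and 27.9% to 34.7% in males. Ephb4-201 took 90.1% to 91.5% in females and 92.2% to 95.6% in males, and Ntn1-201 took 87.5% to 88.3% in females and 88.6% to 90.1% in males. Ntn5-201 took 57.3% to 62.9% in females and 64.2% to 68.5% in males. Ntn1-203 took 11.2% to 12.5% in females and 9.68% to 10.9% in males. In Robo1, which lies under the level limit, 81.8% of TPM in male 1 was assigned to Robo1-206, an isoform listed at 0 in the other 5 libraries.

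**Figure D4:**
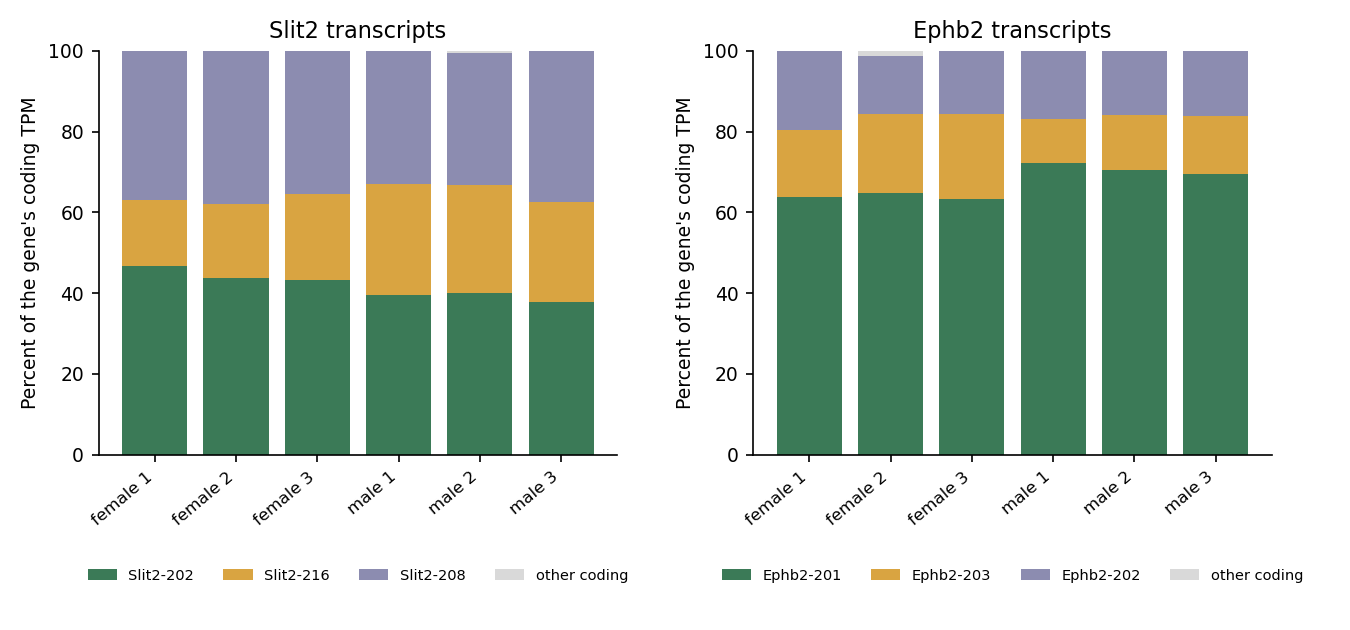
Share of the gene's coding TPM (percent) taken by each isoform of Slit2 and Ephb2, as coloured parts of 1 stacked bar per library, with female libraries left of male libraries. The parts for Slit2-202 and Ephb2-203 are larger in every female bar than in every male bar, and those for Slit2-216 and Ephb2-201 are smaller.

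Epha4 (ENSMUSG00000026235.15), the receptor that binds ephrins of both classes, falls outside the naming rule and is described because of its values. Its protein-coding transcripts had 0, 1.2 and 1.6 reads in females and 1.3, 503 and 526 reads in males, so that 4 libraries were near 0 and males 2 and 3 were not. Nearly all reads of the other libraries were on Epha4-205, a transcript annotated for nonsense-mediated decay, with 567, 567 and 692 reads in females and 710, 0 and 0 reads in males. The coding Epha4-201 had 0 reads in every female and in male 1 and 502 and 525.6 reads in males 2 and 3. Epha4-205 (6315 bases) is wholly contained in Epha4-201 (6328 bases), which has 9 more bases at the 5′ end and 4 more at the 3′ end. With all Epha4 transcripts summed, the level was 1.90, 2.21 and 2.38 TPM in females and 2.28, 2.22 and 2.58 TPM in males, overlapping, with a fold change of -0.13 (adjusted p = 0.639, edgeR). On coding transcripts alone, leaving out male 1 turned the gene into a call at -9.16 (adjusted p = 0.000362, edgeR).

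**Figure D5:**
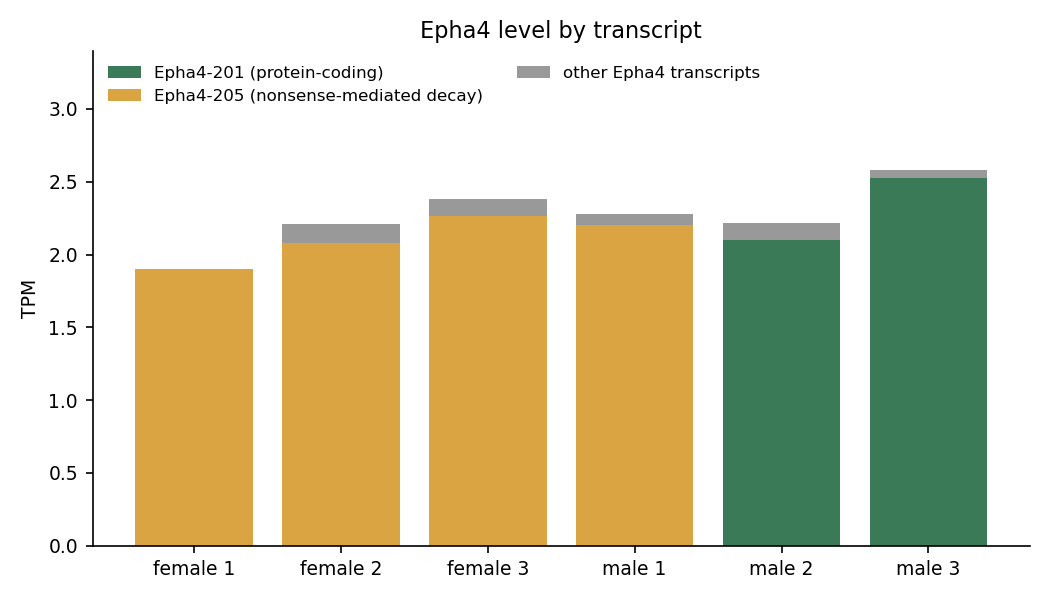
Level of Epha4 (TPM) in each library, female libraries left of male libraries, split into Epha4-201, Epha4-205 and the other Epha4 transcripts. The total stays between 1.90 and 2.58 TPM in all 6 libraries, while Epha4-201 holds reads in males 2 and 3 only.

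Other genes of the 3 pathways were read from lists of signalling partners. Of 31 tested partners of Eph and ephrin signalling none was called by edgeR, 16 were below 0, and the median fold change was -0.01 against 0.02 for all genes, with 2 higher in females and 5 higher in males at an unadjusted p under 0.05 (background 5.45% and 8.26%). The 4 smallest p belonged to Adam10, the protease that cleaves ephrins and Eph receptors (-0.33, SE 0.09, adjusted p = 0.195, edgeR), Sipa1l1 (-0.27), Cdh2, the N-cadherin of Schwann cell contacts (-0.50), and Ngef, an exchange factor that acts downstream of EphA4 (-0.56). Adam10 had 284, 262 and 310.0 CPM in females and 369, 369 and 340 CPM in males, with no overlap.

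Of 22 tested Slit and Robo partners none was called by edgeR, 12 were below 0, the median was -0.01, and at an unadjusted p under 0.05 1 was higher in females and 4 in males, against the same background shares. Dag1, encoding dystroglycan, which binds Slits, was lower in every female library (-0.36, SE 0.10, adjusted p = 0.208, edgeR), and Nell2, encoding a ligand of ROBO3, had a fold change of -1.54 (SE 0.48) at levels under 1 CPM. Arhgap39 (-0.29) and Srgap1 (-0.27), GTPase regulators downstream of Robo, followed. Of 23 tested netrin partners and further ligands none was called by edgeR, 15 were below 0, the median was -0.05, and at an unadjusted p under 0.05 1 was higher in females and 5 in males, against the same shares. Prkca (-0.46, SE 0.13, adjusted p = 0.204, edgeR), Itga6, a laminin receptor subunit (-0.35), Ntng1 (-0.42) and Magee1 (-0.24) had the smallest p. Over the 3 lists together, 15 of 76 tested partners had every female library below every male library in CPM (background 11.3%), among them the 12 named, which were picked for a small p. Every female library lay above every male library for 4 partners (background 9.25%), Pak1, Rock1, Vasp and Usp33, named after their values were seen. DESeq2 called 1 partner of each pathway, all higher in males (Adam10, Dag1 and Prkca), and neither limma-voom nor limma on TPM called any.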

How the data were processed

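Paired-end RNA-seq of 6 nerve libraries was processed with Trimmomatic 0.39, Salmon 1.5.2 and MultiQC 1.9, per the submitters' processing notes. The authors deposited, per the file headers, an unnormalized estimated count and a TPM value for each of 140789 transcripts. For the genome build, the annotation and the strand setting, no entry is given in the sources used here.

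Estimated counts and TPM of protein_coding transcripts were summed per gene (all transcripts for genes with none), and counts were rounded to whole numbers. Genes passing filterByExpr were scaled by TMM and tested with edgeR 4.0.16 (R 4.3.3), robust quasi-likelihood, female minus male, no covariate, adjusted by Benjamini-Hochberg over 18916 genes. The test was checked on simulated counts. Alternatives used limma 3.58.1, DESeq2 1.42.0, other scalings, filters and sums, the replicate block, and each library left out. Members with a mean of at least 2 TPM, a call or non-overlapping sexes, and the 4 partners of smallest p per list, are named. Members and lists were chosen with earlier results of these data known. A count of 0 allows 3 reads, 0.0409 to 0.0578 CPM, which covers counting error only. The labels describe replicates as pools of different animals. In a check for libraries deposited more than 1 time, each pair differed by more than counting noise (chi-square at least 26.6 per degree of freedom).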

Additional observations from a re-analysis of the deposited data

Results flagged for a closer look

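Reads on transcripts not annotated as protein coding, which the comparisons above leave out, averaged more than the 3 reads per library that a count of 0 allows for 18 of the 39 members. Epha4 had a mean of 428 such reads per library, Slit2 had 298 and Robo4 had 172. For Slit2 they were 0.816% to 1.56% of the gene's reads, for Robo4 4.99% to 32.1%, and for Epha4 0.975% to 100%. Means of 10.1 to 31.7 reads were found for Epha6 (31.7), Epha2 (28.9), Ephb3 (27.8), Unc5b (27.6), Ntn3 (15.2), Efnb1 (12.4) and Epha5 (10.1). Lower means were found for Neo1 (9.99), Slit3 (9.59), Ephb1 (7.29), Ephb6 (4.72), Epha3 (3.63), Ephb4 (3.52), Epha7 (3.44) and Ephb2 (3.18). No control libraries were available for this measure, and no cause was tested.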

How the results depend on the processing

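The members' lack of calls in either direction held under the other scalings, filters, transcript sums and length offset, the limma fits and the replicate block. The exceptions were all higher in males. DESeq2 gave 3 calls (Ephb1, Ntn4 and Efnb3). With a library left out there were 0 to 1 (Ephb1 without female 3, Epha4 without male 1). Without the 2 libraries with muscle transcripts there was 1 (Epha4, -9.20, adjusted p = 0.000479, edgeR). Both Epha4 calls rest on its coding transcripts alone. With all Epha4 transcripts summed and every library kept, the fold change was -0.13 (adjusted p = 0.639, edgeR). The part of read assignment between Epha4 transcripts in these calls was not tested. The members' median fold change of -0.14 became -0.051 with no filter, -0.080 with limma on log2(TPM + 1), and -0.13 to -0.071 with a library left out (-0.071 without male 3). Over all genes, the 4 called higher in females became 1 under upper-quartile scaling, 33 with no filter, 2 at a mean CPM of 1, 204 with DESeq2, 7 with limma-voom, 9 with limma on log2(TPM + 0.1), and 0 to 10 with a library left out. The 18 called higher in males became 122 with no filter, 570 with DESeq2, 10 with limma on log2(TPM + 1), and 4 to 138 with a library left out. Separated members numbered 8 with every female above and 12 with every female below without the muscle libraries, against 3 and 8. The shares over all genes rose as well, from 9.25% to 23.2% with every female above and from 11.3% to 21.4% with every female below.

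Same-numbered libraries had deviation correlations of -0.09, -0.16 and 0.04, and other pairs ran from -0.087 to 0.148. These values gave no sign of pairing by number but, with 3 libraries per sex, cannot exclude it. With the replicate block 0 genes were called higher in females and 3 in males. Of 22 named members, 17 kept their direction under all 19 alternatives. Slit2 reversed at -0.00105 with RLE scaling, -0.00105 with DESeq2, -0.0034 with upper-quartile scaling and -0.0089 with a length offset, and ran from -0.0894 to 0.19 with a library left out. Efna5 was 0.0073 with the length offset. With a library left out, Neo1 ran from -0.0867 to 0.0216, Efnb2 from -0.11 to 0.0203 and Ntn5 from -0.013 to 0.28. The causes were not tested. The 3 libraries per sex limit the test, and the 5 members under 0.1 TPM were fitted only with no filter, where their adjusted p was 0.732 to 0.949 (edgeR).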
